A study of Rattus norvegicus with 32 samples.

Results

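The mitochondrial ribosomal proteins of the rat are encoded in the nucleus by genes whose symbols start with Mrpl (large subunit) or Mrps (small subunit). Every symbol of that form in the count table was taken, ignoring case, which gave 79 of 34322 symbols, 49 of the large and 30 of the small subunit. Reads of polyadenylated RNA had been counted for 32 libraries of nucleus accumbens shell, a ventral striatal region whose main neurons are medium spiny neurons. The rats, labelled WT, had been given shocks together with either the smell of lemon (the anxiety cue) or a neutral cue, and met that cue again in tests of anxiety. Cannabidiol (CBD, a compound of the cannabis plant that does not intoxicate) or vehicle preceded those tests, and tissue was taken once the last shock had been given. The 4 groups held 8 libraries each and were CBD with the anxiety cue, vehicle with the anxiety cue, CBD with the neutral cue and vehicle with the neutral cue; shocks were given in all of them. The labels give no strain, sex, age, CBD dose or animal, and do not say that each library came from its own rat, so p-values below measure only the spread between libraries.

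Mitochondria carry their own ribosome, which translates the few messages of the mitochondrial genome, all of them for membrane subunits of the respiratory chain and ATP synthase. Its RNAs come from the mitochondrial genome, whereas its proteins are made in the cytosol and imported. The large subunit joins amino acids and the small subunit reads the message. Some of the proteins descend from the bacterial ribosome and others were added in mitochondria. Neurons depend heavily on respiration, and inherited defects of several of these genes cause severe childhood disease in people.

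Of the 79 genes, 76 passed the filter on low counts, 47 of the large and 29 of the small subunit, and these are the measured members below. Mrpl28 and Mrpl53 had 0 counts in all 32 libraries, so nothing can be said of their expression from these counts. Mrps21l, a near copy of Mrps21, had 0 to 15 counts with a median of 5.5. The symbol is an imperfect guide to place: in the mammalian ribosome the products of Mrps18a and Mrps30 sit in the large subunit, and that of Mrps36 belongs to the 2-oxoglutarate dehydrogenase complex. In the GRCr8 annotation 20 members overlap another gene, among them Mrpl36 with Ndufs6, Mrpl43 with Twnk and Mrps6 with Slc5a3. The sources used here do not give the strand setting of the counting, which leaves the counts of these 20 uncertain.

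Counts per library totalled 11.65 to 24.0 M. The members held 0.170 to 0.228% of them, with a median of 0.186%. Their share was 0.188 ± 0.00695% with CBD and the anxiety cue, 0.182 ± 0.00737% with vehicle and the anxiety cue, 0.182 ± 0.00561% with CBD and the neutral cue, and 0.196 ± 0.0170% with vehicle and the neutral cue (SD, n = 8 each). Among members of the large subunit, Mrpl37, Mrpl3 and Mrpl17 were counted most deeply, with medians of 1081, 1027.5 and 985.5 counts per library. Mrpl57, Mrpl43 and Mrpl33 were counted least, with medians of 93.5, 52 and 16. In the small subunit the most counts fell on Mrps2, Mrps18a and Mrps5 (medians 885.5, 801.5 and 705) and the fewest on Mrps12, Mrps7 and Mrps28 (medians 217.5, 187 and 165). Transcript lengths were not used, so this order shows where the measurements are precise, not which messenger is most abundant.

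Upstream sequence is shown for 4 of the 5 members with the smallest p between cues under vehicle. The members' levels followed each other across libraries, and whether upstream sequence had a part in this was not tested. RefSeq windows of GRCr8 were matched for 63 members (65 windows), and the 250 bases before the gene start were searched on both strands for 6 short motifs. The printed windows belong to Mrps23, Mrpl41, Mrpl12 and Mrps6, 5′ to 3′ on the gene's strand, with motif matches in capitals on either strand.
Mrps23 (chr10:73495988-73496237, plus strand): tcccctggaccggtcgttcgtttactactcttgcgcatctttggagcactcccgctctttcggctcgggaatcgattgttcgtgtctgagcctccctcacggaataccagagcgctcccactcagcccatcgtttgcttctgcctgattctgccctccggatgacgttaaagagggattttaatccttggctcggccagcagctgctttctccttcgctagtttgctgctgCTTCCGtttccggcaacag
Mrpl41 (chr3:28179756-28180005, minus strand): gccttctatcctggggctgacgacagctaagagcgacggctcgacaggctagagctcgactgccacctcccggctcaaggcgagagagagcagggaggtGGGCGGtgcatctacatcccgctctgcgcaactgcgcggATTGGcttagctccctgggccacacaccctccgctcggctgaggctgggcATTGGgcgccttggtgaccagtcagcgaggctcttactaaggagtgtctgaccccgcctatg
Mrpl12 (chr10:106256496-106256745, plus strand): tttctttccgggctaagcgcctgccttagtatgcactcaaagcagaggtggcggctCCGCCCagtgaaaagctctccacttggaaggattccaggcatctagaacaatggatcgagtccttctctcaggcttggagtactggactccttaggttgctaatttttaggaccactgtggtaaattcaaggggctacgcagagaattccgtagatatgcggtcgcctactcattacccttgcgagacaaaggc
Mrps6 (chr11:44778417-44778666, plus strand): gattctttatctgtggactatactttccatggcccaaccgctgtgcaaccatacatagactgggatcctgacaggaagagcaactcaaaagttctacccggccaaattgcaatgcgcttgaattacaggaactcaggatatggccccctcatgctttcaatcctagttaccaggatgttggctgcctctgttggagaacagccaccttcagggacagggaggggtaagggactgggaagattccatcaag
The capitals mark 1 ETS core, read on the other strand, in Mrps23, 1 GC box and 2 CCAAT boxes in Mrpl41, and 1 GC box in Mrpl12, while the Mrps6 window holds none of the 6. The ETS core CGGAAG, the kind of letters that GABPA (NRF2) binds, was found in 33.8% of the members' windows, in 50.8% of those of nuclear genes for oxidative phosphorylation, in 16.8% of those of all protein-coding genes and in 13.9% of all windows. The NRF1 core GCATGCGC was in 7.69% of the members' windows, against 2.84% of protein-coding and 2.20% of all windows. The YY1 core AAGATGG was in 7.69%, against 4.36% and 4.62%, and all 5 of the members' windows with it belonged to the large subunit (11.9% of 42 windows, against 0 of 23 in the small subunit). The GC box GGGCGG was in 41.5%, against 38.9% and 30.5%, CCAAT in 41.5%, against 35.0% and 34.0%, and TATAAA in 12.3%, against 12.1% and 12.9%. These are counts of letters: a match is not a bound site, and none of the 6 motifs was found in all 4 printed windows. The ETS and NRF1 cores and the GC box contain the letters CG. Median counts of CG per window were 13 for members, 17 for oxidative phosphorylation, 8 for protein-coding and 5 for all windows. The part of CG content in the shares was not tested.

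Across libraries the members tended to lie above or below their own means together. Each member's log2 CPM (counts scaled for library size, with TMM) was set relative to its mean over the 32 libraries and averaged. This mean level was 0.005 ± 0.064 with CBD and the anxiety cue, -0.034 ± 0.050 with vehicle and the anxiety cue, -0.023 ± 0.043 with CBD and the neutral cue, and 0.053 ± 0.150 with vehicle and the neutral cue (SD, n = 8 each). The groups overlapped, and the vehicle neutral-cue libraries spread most widely, between -0.104 and 0.351. Library 6 of that group stood at the top, with 73 of 76 members above their own mean, and 49 of the 76 had their highest value of all 32 libraries in it. Library 1 of the same group came next at 0.172, also with 73 of 76 members above their mean. The lowest was vehicle anxiety-cue library 3 at -0.139, with 9 of 76 above their mean and 15 at their lowest value. The same counts were not made over all genes, so they do not set the members apart from other genes.

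**Figure D1:**
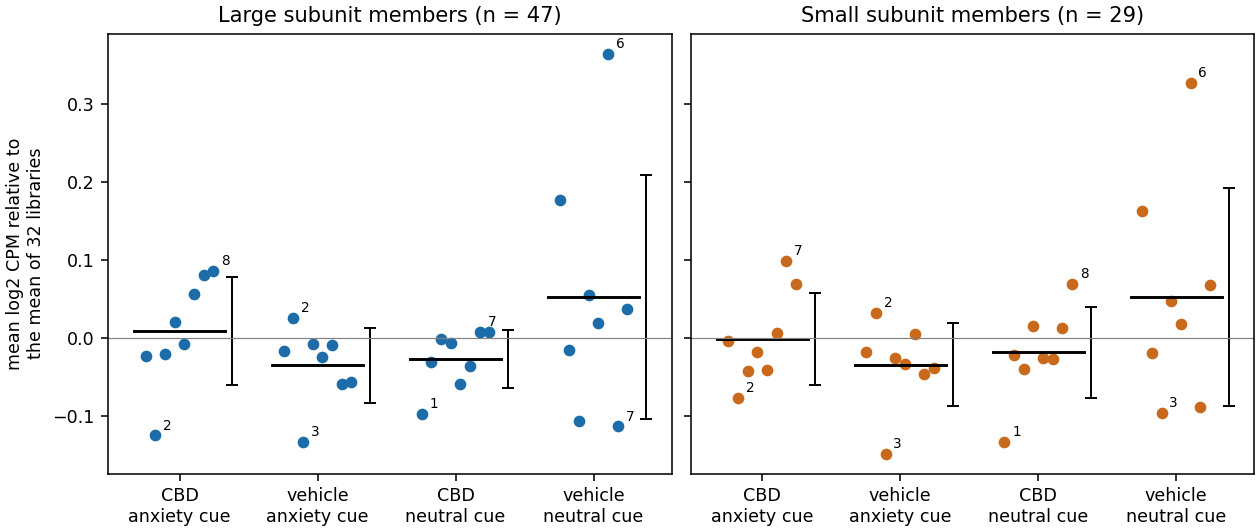
Mean log2 CPM of the large (left) and small (right) subunit members in each library relative to the mean of 32 libraries, by group; points are libraries, the line and bar are the mean and SD of 8, and numbers name the highest and lowest library. Vehicle neutral-cue library 6 lies at 0.365 for the large and 0.328 for the small subunit, above all others.

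Over all 32 libraries the large and the small subunit mostly moved together, less clearly so within CBD and the neutral cue. The mean level of the large minus that of the small subunit was 0.010 ± 0.034 with CBD and the anxiety cue, -0.001 ± 0.014 with vehicle and the anxiety cue, -0.008 ± 0.033 with CBD and the neutral cue, and -0.0003 ± 0.022 with vehicle and the neutral cue (SD, n = 8 each). Over the 32 libraries it ran from -0.062 to 0.051, a narrower range than that of either subunit. The ratio of counts on the large to counts on the small subunit was 1.53 to 1.65, with group means of 1.58, 1.57, 1.56 and 1.58 in that order of groups. It follows gene number and transcript length as well as expression, so only its spread is of use. Mitochondria-specific members minus those with bacterial homologues differed by -0.003, 0.003, -0.002 and 0.002 in the group means, less than the SDs of 0.015 to 0.046.

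**Figure D2:**
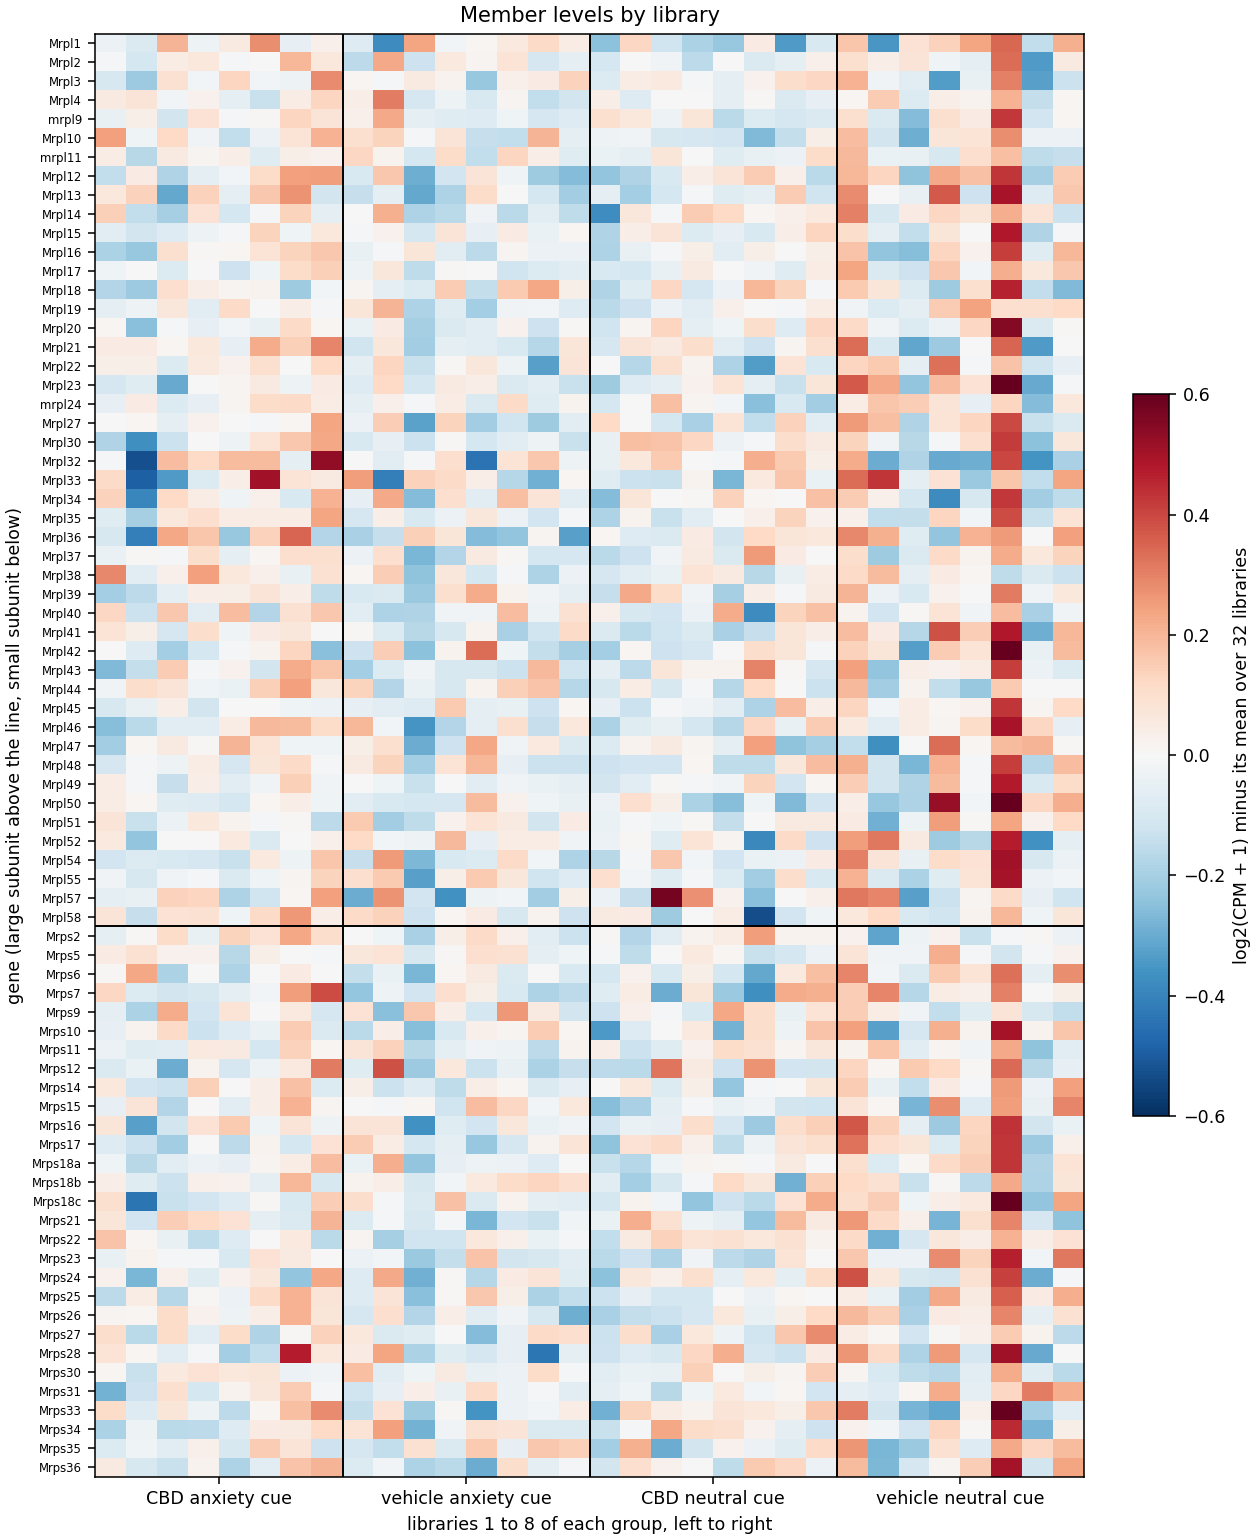
log2(CPM + 1) of each measured member minus its mean over 32 libraries, in colour, with genes down the page and libraries across, grouped by treatment. Vehicle neutral-cue library 6 forms a red column in both subunits, and 73 of its 76 members lie above their mean. The same count was not made over all genes.

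Single members were measured with less scatter than most genes. The SD of log2 CPM within groups had a median of 0.154 over the large and 0.137 over the small subunit, against 0.249 over all 17059 genes tested and 0.260 over the 11248 genes within the members' range of level. That range was wide, from -0.10 (Mrpl33) to 5.93 log2 CPM (Mrpl37), so it does not match genes to members by level. The part of level in the lower scatter was not tested. Mrpl33, with 6 to 25 counts per library, had the largest within-group SD, 0.466. Next came Mrpl32, whose product is cleaved by the m-AAA protease in yeast and mouse, at 0.254. Mrps5, a homologue of a bacterial protein of the small subunit, had the smallest at 0.083, followed by Mrpl17 at 0.097. The members lie on 19 chromosomes, with at most 13 on any.

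With vehicle, the anxiety cue against the neutral cue asked how levels differed with the cue alone. Most members were below 0: 65 of 76 had a log2 fold change below 0 (of all genes tested, 49.9% were below and 50.1% above 0), 41 of 47 in the large and 24 of 29 in the small subunit. The median was -0.10 in the large subunit and -0.12 in the small, against 0.00 over all genes. No member passed an adjusted p of 0.05 in edgeR's quasi-likelihood test, nor did any of the 17059 genes (0%). At an unadjusted p under 0.05 there were 15 lower and 0 higher members, while 6.34% of all genes were lower and 6.41% higher at that p. DESeq2 likewise called 0 genes, with 17 members lower at an unadjusted p under 0.05 and 2359 of all genes at such a p in either direction. In tissue libraries less RNA per cell and fewer cells of a type cannot be told apart.

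The 5 members with the smallest p are given by their values. Mrps23, a mitochondria-specific protein of the small subunit, had 22.6, 25.0 and 30.0 CPM (lowest, median and highest) with the anxiety cue, against 25.8, 29.5 and 37.1 CPM with the neutral cue, both under vehicle. Its libraries overlapped, with 7 of 8 anxiety-cue libraries below the neutral-cue median, and the log2 fold change was -0.24 ± 0.07 (SE; edgeR adjusted p = 0.353). Vehicle anxiety-cue library 5 was the exception at 30.0 CPM.
Mrpl13, homologue of a bacterial large subunit protein, had 9.04, 10.4 and 12.4 CPM with the anxiety cue, against 10.4, 12.1 and 16.5 CPM with the neutral cue. The groups overlapped, with the neutral-cue libraries 6, 4 and 1 highest; the log2 fold change was -0.28 ± 0.09 (edgeR adjusted p = 0.374).
Mrps6, homologue of a bacterial small subunit protein and overlapped by Slc5a3, had 14.7, 17.2 and 18.7 CPM with the anxiety cue, against 16.9, 19.7 and 22.9 CPM with the neutral cue. All 8 anxiety-cue libraries lay below the neutral-cue median although the ranges overlapped, and the log2 fold change was -0.21 ± 0.08 (edgeR adjusted p = 0.374).
Mrpl41, a mitochondria-specific large subunit protein, had 28.5, 30.6 and 35.5 CPM with the anxiety cue, against 26.5, 36.8 and 46.0 CPM with the neutral cue. The neutral-cue libraries reached both lower and higher than the others, and the log2 fold change was -0.21 ± 0.08 (edgeR adjusted p = 0.374).
Mrpl12, a stalk protein where translation factors dock, which in human cells also binds the mitochondrial RNA polymerase, had 28.9, 33.2 and 40.0 CPM with the anxiety cue, against 30.1, 40.1 and 48.3 CPM with the neutral cue. Here too all 8 anxiety-cue libraries lay below the neutral-cue median within overlapping ranges, with a log2 fold change of -0.22 ± 0.09 (edgeR adjusted p = 0.374).

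**Figure D3:**
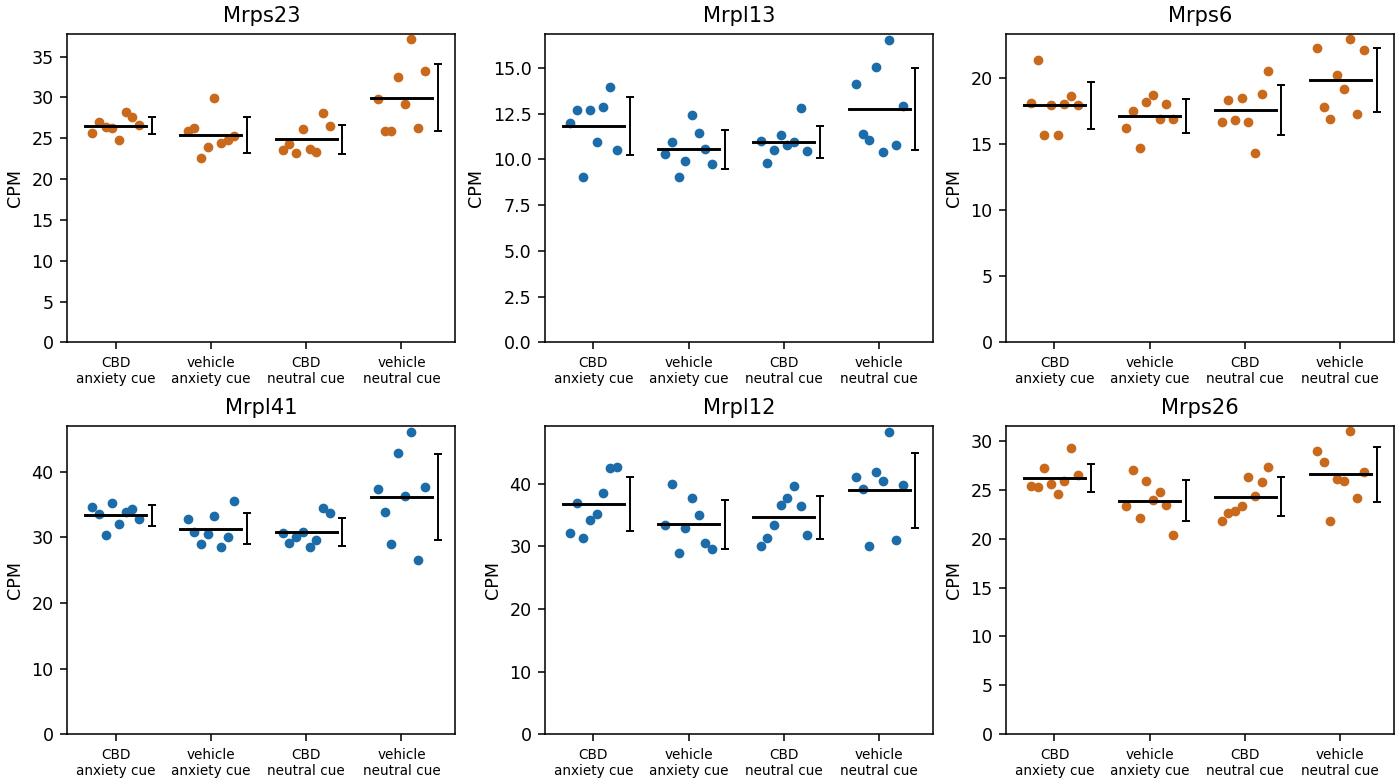
CPM of 6 members in each library (points) with the mean and SD of 8 per group (line and bar); small subunit genes in orange, large in blue. Groups overlap for all 6, and the highest point is in vehicle neutral-cue library 6 for each of them.

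Members listed for their roles ran from near 0 to about the size of those 5. Near 0 lay mrpl11, from the base of the stalk (log2 fold change 0.01), Mrpl44, with a fold like RNase III (0.02), Mrpl58, which frees stalled ribosomes (-0.04), Mrps34 (-0.04), Mrpl3 (0.05) and Mrpl34 (0.05). Further down were Mrps22 at -0.08, Mrps12, at the decoding centre, at -0.12, Mrps16 at -0.15 and Mrpl36 at -0.24. Defects of Mrpl3, Mrpl44, Mrpl12, Mrps16, Mrps22 and Mrps34 are known causes of human mitochondrial disease. The 3 related genes Mrps18a, Mrps18b and Mrps18c, whose products occupy different places, stood at -0.12, 0.03 and -0.14. Mrps30 was at 0.08 and Mrps36, not a ribosomal protein, at -0.19. None of these had an adjusted p under 0.374 in edgeR. Members with bacterial homologues had a median of -0.11 (38 of 46 below 0) and mitochondria-specific ones -0.11 (26 of 29), and placing genes by structure left the medians at -0.10 for the large and -0.12 for the small subunit.

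The size of this difference moved with single libraries. With each of the 32 libraries left out in turn, 6 to 26 members were lower at an unadjusted p under 0.05: 26 without vehicle neutral-cue library 2, 9 without vehicle anxiety-cue library 3 and 6 without vehicle neutral-cue library 6. Of all genes, 3119, 1627 and 2077 had such a p in either direction in those fits, against 2175 with all libraries. Without vehicle neutral-cue library 6 the median was -0.06 in both subunits, 55 of 76 members lay below 0, and 6 lower and 1 higher member had an unadjusted p under 0.05, against 5.5% of all genes lower and 6.6% higher. Mrps23 was then at -0.19 ± 0.06 (edgeR adjusted p = 0.406), Mrpl13 at -0.22, Mrps6 at -0.18, Mrpl41 at -0.15 and Mrpl12 at -0.17. The higher member was Mrps30, at 0.12. Slc17a6 is a glutamatergic marker of neighbouring regions. Leaving out the 6 libraries with it at 20 CPM or more put 72 of 77 members below 0 and Mrps23 at -0.27. The median over all genes was -0.0007 in that fit. At an unadjusted p under 0.05 it had 21 lower and 0 higher members, and 1813 of all genes in either direction. On the vehicle side, leaving out these 6 dropped numbers 4, 7 and 8 of the neutral cue but only number 5 of the anxiety cue. Numbers 6 and 1 of the neutral cue, whose mean levels were highest (0.351 and 0.172), stayed in. Leaving out number 6 as well was not tested.

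For CBD against vehicle under the anxiety cue, the log2 fold change was above 0 for 55 of 76 members (of all genes, 48.3% were above and 51.7% below), with a median of 0.04 in the large and 0.02 in the small subunit, against 0.00 over all genes. edgeR called no member and no gene of 17059 (0%), as did DESeq2. At an unadjusted p under 0.05 there were 0 lower and 2 higher members in edgeR, against 0.832% of all genes lower and 0.75% higher. DESeq2 had 3 higher members at that p, and 279 of all genes in either direction. With each library left out, edgeR had 0 to 4 higher members at that p. There were 0 without CBD anxiety-cue library 6 or 8 or vehicle anxiety-cue library 1, 3 or 7. There were 4 without CBD anxiety-cue library 2. In that order 263, 266, 283, 241, 229 and 333 of all genes had such a p either way, against 270 with all libraries.

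Mrps26, a mitochondria-specific small subunit protein, had 24.6, 25.7 and 29.2 CPM with CBD, against 20.3, 23.7 and 27.0 CPM with vehicle. Every CBD library lay at or above the vehicle median, though the ranges overlapped, and the log2 fold change was 0.13 ± 0.06 (edgeR adjusted p = 0.9999).
Mrpl21, homologue of a bacterial large subunit protein, had 15.9, 17.1 and 20.3 CPM with CBD, against 14.1, 15.5 and 17.3 CPM with vehicle. All CBD libraries again lay above the vehicle median within overlapping ranges, and the log2 fold change was 0.18 ± 0.09 with the same adjusted p.
The other 3 of smallest p were Mrpl38 at 0.13, Mrps21 at 0.14 and Mrpl13 at 0.17. Mrps23 had 24.8, 26.5 and 28.2 CPM with CBD, against 22.6, 25.0 and 30.0 CPM with vehicle, which overlap throughout. Mrpl12 had 31.4, 36.1 and 42.6 CPM with CBD, against 28.9, 33.2 and 40.0 CPM with vehicle, at a log2 fold change of 0.13. Mrpl41 was at 0.09. The small subunit's median hung on single libraries: it was 0.00176 without vehicle anxiety-cue library 3 and 0.0480 without library 2, and the large subunit's was 0.0289 without CBD anxiety-cue library 7.

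CBD against vehicle under the neutral cue used the same 8 vehicle neutral-cue libraries as the comparison of cues under vehicle. Of 76 members 62 had a log2 fold change below 0 (of all genes, 49.1% were below and 50.9% above), with a median of -0.09 in the large and -0.08 in the small subunit, against 0.01 over all genes. edgeR called 0 members and 0 genes (0%), and 12 members were lower and 0 higher at an unadjusted p under 0.05, against 12% of all genes lower and 10.5% higher. DESeq2 called 349 of the 17059 genes tested and 1 of the 76 members. That member was Mrps23, at a log2 fold change of -0.27 (DESeq2 adjusted p = 0.0176).

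Mrps23 had 23.2, 24.0 and 28.1 CPM with CBD, against 25.8, 29.5 and 37.1 CPM with vehicle. All 8 CBD libraries lay below the vehicle median, the ranges overlapped between 25.8 and 28.1 CPM, and edgeR gave -0.27 ± 0.07 (adjusted p = 0.0697). Without vehicle neutral-cue library 6 it was at -0.22 (edgeR adjusted p = 0.0928).
Mrpl41 had 28.5, 30.4 and 34.4 CPM with CBD, against 26.5, 36.8 and 46.0 CPM with vehicle, with a log2 fold change of -0.23 ± 0.08 (edgeR adjusted p = 0.122). Mrpl50, a mitochondria-specific large subunit protein, had 14.6, 16.8 and 19.1 CPM with CBD, against 15.0, 18.9 and 28.9 CPM with vehicle. The vehicle libraries 6 and 4 were the highest, and the log2 fold change was -0.28 ± 0.10 (edgeR adjusted p = 0.125).
Mrps15, homologue of a bacterial small subunit protein, was at -0.18, and Mrpl1, whose bacterial homologue forms a mobile stalk near the tRNA exit, at -0.24, both with all 8 CBD libraries below the vehicle median. Without vehicle neutral-cue library 6 the medians were -0.04 in the large and -0.05 in the small subunit, with 53 of 76 members below 0, and 5 lower and 2 higher members had an unadjusted p under 0.05, against 12.2% of all genes lower and 10.9% higher. The count of lower members was 22 without library 3 of that group, 21 without library 7 and 7 without library 4. Of all genes, 4687, 3548 and 2398 had such a p in either direction in those fits, against 3852 with all libraries. In the fit without library 6, the 2 higher were Mrps30 at 0.13 and Mrpl32 at 0.29. The small subunit gene Mrps23 thus kept the smallest p of the members in both fits.

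Under CBD the anxiety cue against the neutral cue left 50 of 76 members above 0 (of all genes, 48.8% were above and 51.2% below), with a median of 0.04 in the large and 0.02 in the small subunit, against 0.00 over all genes. edgeR and DESeq2 called no member and no gene (0%). At an unadjusted p under 0.05, 2.29% of all genes were lower and 1.65% higher in edgeR. In DESeq2 688 genes had such a p in either direction. Each had 0 lower and 1 higher member at that p. That member was Mrpl10, the stalk protein that carries Mrpl12. It had 21.7, 24.7 and 28.8 CPM with the anxiety cue, against 19.9, 22.5 and 24.7 CPM with the neutral cue, and the log2 fold change was 0.15 ± 0.07 (edgeR adjusted p = 0.995). The ranges overlapped, with 1 of 8 anxiety-cue libraries below the neutral-cue median. Mrpl58 at 0.16, Mrpl1 at 0.19, Mrpl38 at 0.12 and Mrps26 at 0.11 followed by p. Without CBD anxiety-cue library 7 the small subunit's median was -9.77e-05, and without CBD anxiety-cue library 8 the large subunit's was 0.0211; without library 2 of that group the small subunit's was 0.0367.

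CBD with the anxiety cue against vehicle with the neutral cue, the pair that differs in both factors, put 60 of 76 members below 0 (of all genes, 51.3% were below and 48.7% above), with a median of -0.07 in both subunits against -0.01 over all genes. edgeR called 0 members and 0 genes (0%), with 8 lower and 1 higher member at an unadjusted p under 0.05, against 4.31% of all genes lower and 4.36% higher. DESeq2 called 1 gene, not a member, and had the same 8 and 1 in number, with 1599 of all genes at that p in either direction. Mrps23 had 24.8, 26.5 and 28.2 CPM with CBD and the anxiety cue, against 25.8, 29.5 and 37.1 CPM with vehicle and the neutral cue, at -0.18 ± 0.07 (edgeR adjusted p = 0.563). All 8 libraries with CBD and the anxiety cue lay below the vehicle neutral-cue median. Mrps17 was at -0.19, Mrpl45, near the exit tunnel where the ribosome meets the inner membrane, at -0.14, Mrps18c at -0.22 and Mrps2 at 0.13. Without vehicle neutral-cue library 6 the medians were -0.01 in the large and -0.03 in the small subunit, 46 of 76 members lay below 0, and 0 lower and 4 higher members had an unadjusted p under 0.05, against 4.18% of all genes lower and 4.28% higher. The count of lower members was 13 without vehicle neutral-cue library 2, 5 without library 8 of that group, 4 without CBD anxiety-cue library 3 and 5 without CBD anxiety-cue library 4. Of all genes, 2326, 918, 937 and 1150 had such a p in either direction in those fits, against 1480 with all libraries.

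The test of whether the CBD effect differed between cues gave an interaction (the CBD effect with the anxiety cue minus that with the neutral cue) above 0 for 67 of 76 members (of all genes, 48.8% were above and 51.2% below). The median was 0.13 in both subunits, against -0.01 over all genes. edgeR called 0 members and 0 genes (0%), with 0 lower and 12 higher members at an unadjusted p under 0.05, against 6.78% of all genes lower and 7.02% higher; DESeq2 called 11 genes and no member. Mrps23 had the smallest p at 0.34 ± 0.10 (edgeR adjusted p = 0.321), followed by Mrpl41 at 0.32, Mrpl13 at 0.39, Mrps26 at 0.26 and Mrpl12 at 0.30. Without vehicle neutral-cue library 6 the median was 0.08 in the large and 0.07 in the small subunit, with 1 lower and 5 higher members at that p, against 7.13% of all genes lower and 7.14% higher. There were 7 higher members without CBD anxiety-cue library 8, vehicle anxiety-cue library 3 or 7, or vehicle neutral-cue library 1, and 17 without vehicle neutral-cue library 3. In that order of fits 2626, 1941, 1843, 2764 and 3041 of all genes had such a p in either direction, against 2353 with all libraries. The 6 comparisons share libraries, so their values are not independent of each other.

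**Figure D4:**
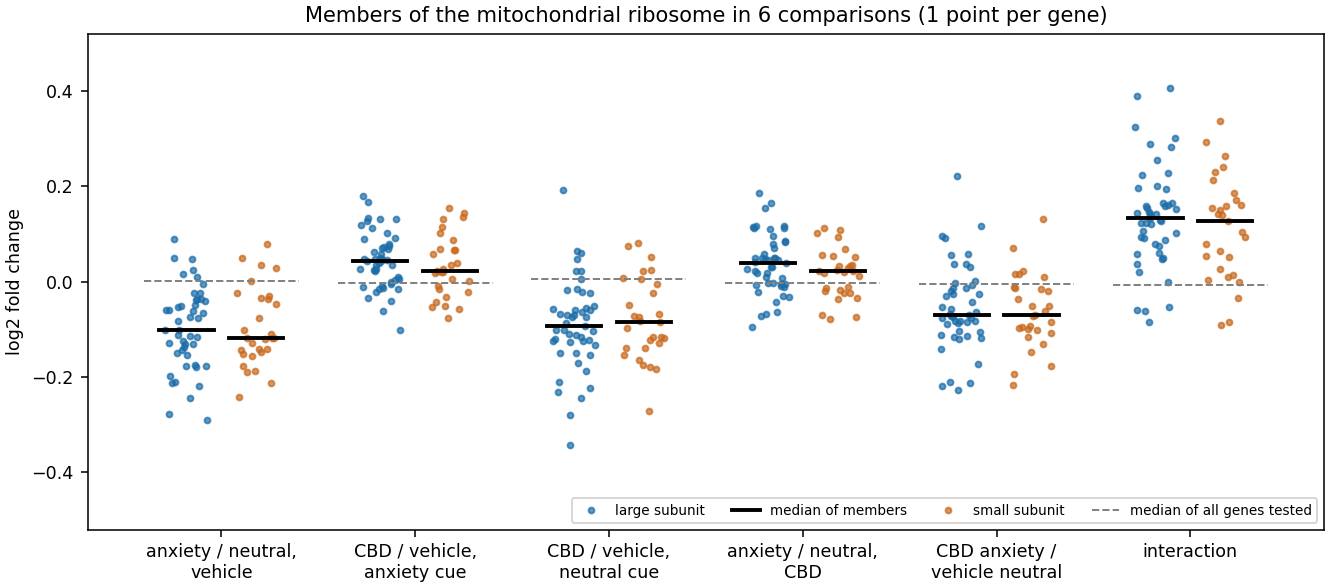
log2 fold change of each measured member (points) in 6 comparisons, large subunit left and small right, with their medians (black) and the median of all genes tested (dashed). The medians of the large and small subunit are -0.10 and -0.12 with the cue under vehicle, while the interaction has 0.13 in both.

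Other genes of mitochondrial translation did not all stand where the members did. In the cue comparison under vehicle, the 6 ribosomal proteins without an Mrpl or Mrps symbol had a median of -0.07 (4 of 6 below 0), with Dap3 at 0.07 and Chchd1 at -0.21. Translation factors had a median of -0.01 (9 of 17 below 0): the elongation factor Tufm was at -0.12 and the initiation factor Mtif2 at 0.16. Assembly factors stood at 0.00 (13 of 26 below 0), with Lyrm9 at -0.31 and Eral1, which binds the RNA of the small subunit, at 0.19. The synthetases that charge mitochondrial tRNAs stood at a median of 0.05 (3 of 19 below 0), Vars2 being at 0.23, and genes for mitochondrial DNA expression a median of 0.03 (8 of 19 below 0). None of these genes passed an adjusted p of 0.05 in edgeR.
Nuclear genes for oxidative phosphorylation lay below 0 in 72 of 73 cases with a median of -0.16, and 30 of them were lower at an unadjusted p under 0.05, where 6.34% of all genes were. Without vehicle neutral-cue library 6 that count was 6, with 67 of 73 below 0 and a median of -0.10. Proteins of the cytosolic ribosome lay below 0 in 86 of 89, with a median of -0.15, and in 71 of 89 without library 6, with a median of -0.04. Under the neutral cue, CBD against vehicle gave medians of -0.14 for both of these lists, 0.06 for the synthetases, -0.02 for assembly factors and -0.02 for translation factors. Without library 6 the oxidative phosphorylation list stood at -0.07 there, with 59 of 73 below 0 and 8 lower at that p, against 21 with it, and the cytosolic ribosome at -0.04, with 69 of 89 below 0.

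**Figure D5:**
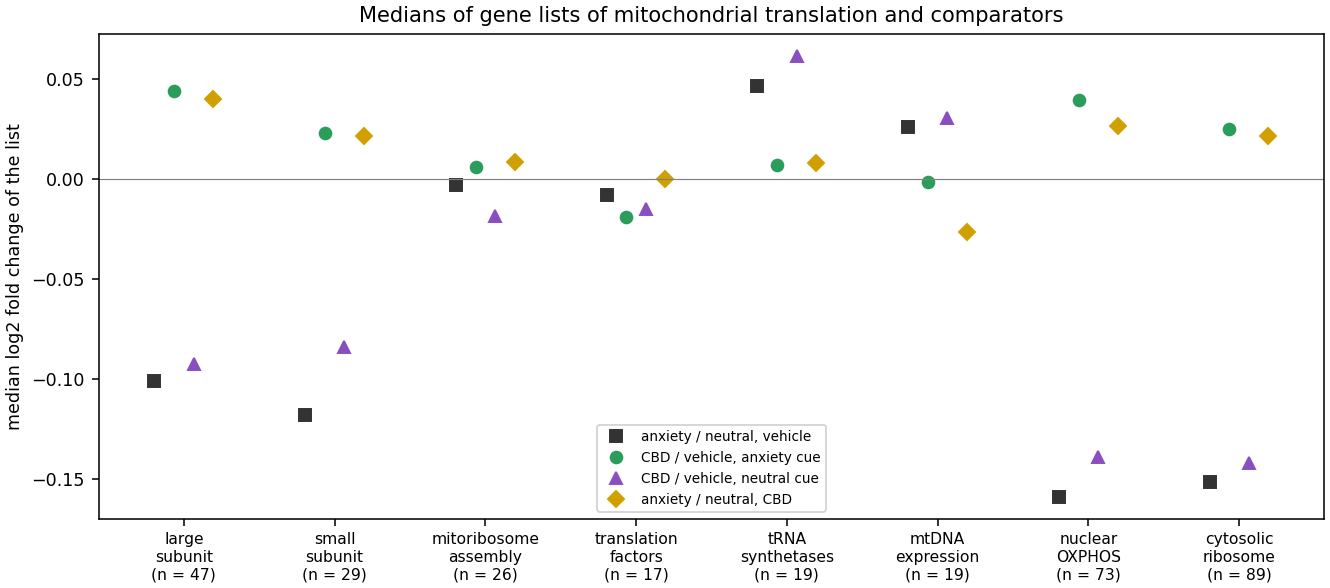
Median log2 fold change of 8 gene lists (x axis) in 4 comparisons (symbols). Both subunits, nuclear oxidative phosphorylation and the cytosolic ribosome lie between -0.16 and -0.08 for the cue under vehicle and for CBD under the neutral cue, while synthetases lie at 0.05 and 0.06.

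The cytosolic ribosomal proteins also had their highest mean level in vehicle neutral-cue library 6, at 0.599, followed by libraries 1 and 2 of that group at 0.287 and 0.263; the part of that shift in the members' values was not tested. Marker levels of the tissue and of other cell types are given beside these values; edgeR called none of the markers, and their part in the members' values was not tested. The 15 medium spiny neuron markers, all measured and none at 0 in every library, summed to 3139 to 10689 CPM with CBD and the anxiety cue, 2124 to 10315 with vehicle and the anxiety cue, 6357 to 9050 with CBD and the neutral cue, and 1808 to 8710 with vehicle and the neutral cue. Drd1, a defining receptor of these neurons, was present in every library at 57.3 to 459.9 CPM. The 9 septal and pallidal markers summed to 275.1 to 719.1, 260.5 to 852.6, 238.0 to 472.6 and 339.5 to 1078 CPM in those groups. In the cue comparison under vehicle, 15 of 15 medium spiny neuron markers were above 0 (median 0.45) and 8 of 9 septal and pallidal ones below 0 (median -0.66), with 1 and 3 at an unadjusted p under 0.05. For CBD under the neutral cue the medians were 0.52 and -0.90, and 10 of 10 oligodendrocyte markers lay below 0 (median -0.41). In that comparison 3 medium spiny neuron, 7 septal and pallidal and 10 oligodendrocyte markers had an unadjusted p under 0.05. Microglia markers were below 0 in 8 of 8 cases for both comparisons, with medians of -0.15 for the cue under vehicle and -0.23 for CBD under the neutral cue. The 8 cortical markers summed to 49.2 to 121.6, 50.6 to 112.9, 55.1 to 1190 and 58.8 to 94.8 CPM in the same order of groups. CBD neutral-cue library 6 held the 1190 CPM. Of the 4 tested, 4 lay above 0 for CBD under the neutral cue (median 1.02), 1 at an unadjusted p under 0.05. For the cue under vehicle 3 of 4 lay below 0 (median -0.38), 0 at that p. The 8 adipocyte markers summed to 20.8 to 66.4 CPM with CBD and the anxiety cue, 20.8 to 83.4 with vehicle and the anxiety cue, 20.3 to 26.3 with CBD and the neutral cue, and 18.5 to 130.2 with vehicle and the neutral cue. For CBD under the neutral cue 7 of 8 of them lay below 0 (median -3.54), 6 at an unadjusted p under 0.05, and for the cue under vehicle 7 of 8 (median -0.62), 0 at that p. The hepatocyte markers summed to 261.0 to 572.0, 273.7 to 551.8, 208.4 to 851.2 and 285.8 to 517.7 CPM in those groups. Of the 7 tested, 5 lay above 0 for CBD under the neutral cue (median 3.94) and 6 for the cue under vehicle (median 2.20), with 4 higher at an unadjusted p under 0.05 in each and 1 lower in the first. The mean sum was 438.3 CPM with CBD and the neutral cue and 402.6 with vehicle and the neutral cue. The sums thus do not follow the median marker and cannot be read as the amount of liver tissue in a library. A further fit used the levels of septal and pallidal, cortical, oligodendrocyte and choroid plexus markers as covariates, and none of the other markers. In it 69 of 76 members lay below 0 in the cue comparison under vehicle, where the median over all genes was 0.0066, and Mrps23 was at -0.20. There 18 members were lower at an unadjusted p under 0.05. Of all genes 1068 had such a p in either direction, against 2175 without covariates.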

How the data were processed

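Counts per gene in the table that the authors deposited were whole numbers and were used unchanged (34322 symbols, 32 libraries). Per the submitters' processing notes the tools were STAR, featureCounts and DESeq2, and the builds mRatBN7.2 and Rnor_6.0; versions, roles and the strand setting are not given in the sources used here. Per the labels' protocols RNA was extracted with a Zymo kit and selected for polyA. Each column matched 1 library by its title, and no pair of libraries was identical. Libraries were grouped by the treatment label, and their numbers follow the order of deposition and pair nothing.

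edgeR 4.0.16 in R 4.3.3 (limma 3.58.1) kept 17059 genes by filterByExpr, scaled libraries by TMM and fitted 1 quasi-likelihood model to all 4 groups. The 6 contrasts were adjusted by Benjamini and Hochberg over all genes tested, with a threshold of 0.05. log2 CPM had a prior count of 2. Subunit and list summaries are counts and medians with no test. Library counts of 11.65 to 24.0 M limit the precision of members with few counts. The alternatives were DESeq2 1.42.0, DESeq2's size factors, no filter on low counts, at least 1 CPM in 8 libraries, marker covariates, leaving out 6 libraries with Slc17a6 at 20 CPM or more on plain totals, and leaving out each library. The script was tested on simulated data. With changes set between the cues under vehicle, edgeR called 7 of 50 genes changed 1.2-fold and 39 of 50 changed 1.5-fold. Those genes were not chosen as members. The lack of a call therefore does not mean that a change of about 1.2-fold was absent.

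Members, gene lists and named genes were chosen with earlier results of these data known. Named were the 5 members with the smallest p per comparison where none passed, members with set roles, the extremes of counts and spread, and up to 3 genes of other lists by p. Protein-coding genes of the mitochondrial genome are not analysed here. Promoter windows came from RefSeq (GRCr8), a build other than the submitters', and were matched by symbol.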

Additional observations from a re-analysis of the deposited data

Results flagged for a closer look

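Within groups of 8 libraries, a value was picked out when its gap to the nearest other library exceeded 0.526 of the group's range. Of 156 groups of values examined (39 measures in 4 groups), 9 were picked out, and chance picks out about 1 in 20. Mrpl3 was low in vehicle anxiety-cue library 5, at 49.4 CPM. Mrpl50 was high in the same library, at 20.4 CPM. Mrpl45 was high in vehicle anxiety-cue library 4, at 31.4 CPM, and in vehicle neutral-cue library 6, at 38.1 CPM. Mrps30 was high in vehicle neutral-cue library 6, at 43.2 CPM. Mrps12 was high in vehicle anxiety-cue library 2, at 16.2 CPM. Mrpl34 and Mrps22 were low in CBD neutral-cue library 1, at 13.9 and 25.1 CPM. The mean level of the small subunit was low in vehicle anxiety-cue library 3, at -0.148 on the log2 scale, while the other 7 libraries of the group lay between -0.0457 and 0.0327.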

How the results depend on the processing

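With each library left out, the large and small medians ran from -0.121 to -0.0569 and -0.148 to -0.0615 for the cue under vehicle, and from -0.115 to -0.0406 and -0.113 to -0.0530 for CBD under the neutral cue. The count of genes called moved: without libraries high in Slc17a6 it was 19 for the cue under vehicle, 31 for CBD under the neutral cue and 4 for CBD with the anxiety cue against vehicle with the neutral cue; with DESeq2 it was 349 and 1 for the last 2 of these and 11 for the interaction. For CBD under the neutral cue it was 0 to 165 with a library left out (165 without vehicle anxiety-cue library 5, 68 without library 4). Members called there were 0 to 1 of 76. That member was Mrps23, at -0.271 (edgeR adjusted p = 0.0479) without vehicle anxiety-cue library 5 and at -0.272 with DESeq2 (DESeq2 adjusted p = 0.0176). Its adjusted p was 0.0504 to 0.907 under the other alternatives. With a library left out, genes called were 0 to 10 for the interaction. They were 0 to 1 for CBD with the anxiety cue against vehicle with the neutral cue. Small values changed sign. Under marker covariates mrpl11 was -0.0540, Mrpl3 -0.0549 and Mrpl34 -0.0389 for the cue under vehicle. Without libraries high in Slc17a6 they were -0.0604, -0.0557 and -0.0769, Mrpl44 -0.0120, Mrps18b -0.00747, and Mrps6 -0.0343 for the cue under CBD. With a library left out mrpl11 ran from -0.0127 to 0.0392, Mrpl44 from -0.0131 to 0.0596, Mrps34 from -0.0774 to 0.0349, and Mrps6 for the cue under CBD from -0.0123 to 0.0627. The cause was not tested. No paired analysis was possible because the labels give no replicate numbers.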
